A study of Mus musculus with 8 samples.

Results

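The promoter-flanking sites outside CpG islands are ASH2L binding sites whose centres lay more than 1 kb and at most 3 kb from the nearest annotated transcription start site (TSS) and which overlapped no CpG island. Islands were computed from the sequence and had to span 200 bp or more, exceed 50% GC, and hold CpG dinucleotides at over 0.6 of the number that base composition predicts. Of the 6444 sites in the list, 501 met the rule. Of the 662 sites at this distance from a TSS, the other 161 overlapped an island.

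The study measured ASH2L occupancy by chromatin immunoprecipitation and sequencing (ChIP-seq) in iMEF cells, immortalised mouse embryo fibroblasts. In these cells Ash2l fl/fl alleles had been recombined by Cre-ER, which removes exon 4, and a lentiviral human ASH2L carrying the FKBP12F36V tag and HA epitopes took the place of the endogenous protein. All 4 groups of 2 replicates share this background. They are ASH2L precipitates and inputs without dTAG, and ASH2L precipitates and inputs after exposure to dTAG for 1 h, a compound that tethers the FKBP tag to a ubiquitin ligase. The cells are a selected clone of 1 line and the tagged protein comes from a transgene. The list pools the sites of all samples and gives positions only, without a value per library. No value below therefore has a replicate error, the depth of each library is not shown by the list, and the effect of dTAG on these sites was not analysed here. The study also names a second list, of binding changed by dTAG, which was not used here. With no expression values, the fibroblast label was not checked against markers.

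ASH2L is a shared core subunit of the KMT2 (COMPASS) complexes, which methylate lysine 4 of histone H3. The trimethylated form marks active promoters and is broadest at CpG islands, which some KMT2 complexes reach through CXXC domains that bind unmethylated CpG. The sequence that flanks a promoter often carries lower methylation states of the same lysine, and promoter-near introns of fibroblast genes can hold enhancers bound by AP-1 and TEAD factors.

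The following lines show 6 sites of at most 300 bp whose AP-1 motif (TGACTCA or TGAGTCA, which are each other's reverse complement) lay nearest to the site centre, chosen by side. AP-1 factors are dimers of FOS and JUN proteins. Each is printed 5′ to 3′ on the plus strand of mm10, from GRCm38.p6, with the motif in capitals, and is named by the gene of the nearest TSS and its side.
Gm43005 upstream, chr3:126661161-126661360: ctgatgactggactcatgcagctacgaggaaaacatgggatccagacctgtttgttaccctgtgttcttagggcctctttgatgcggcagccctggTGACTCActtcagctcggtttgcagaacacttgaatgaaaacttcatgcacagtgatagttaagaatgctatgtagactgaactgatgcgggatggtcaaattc
Spns2 upstream, chr11:72491230-72491446: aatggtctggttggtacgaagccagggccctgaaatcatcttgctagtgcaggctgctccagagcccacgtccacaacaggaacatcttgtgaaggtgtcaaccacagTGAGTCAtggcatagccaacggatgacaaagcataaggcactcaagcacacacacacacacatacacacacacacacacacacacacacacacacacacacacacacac
Gm23910 upstream, chr12:73147322-73147521: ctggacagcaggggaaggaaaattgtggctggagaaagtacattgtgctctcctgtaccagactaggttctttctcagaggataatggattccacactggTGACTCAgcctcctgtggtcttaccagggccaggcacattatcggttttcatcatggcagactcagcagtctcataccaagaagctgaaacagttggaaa
Aknad1 downstream, chr3:108762936-108763135: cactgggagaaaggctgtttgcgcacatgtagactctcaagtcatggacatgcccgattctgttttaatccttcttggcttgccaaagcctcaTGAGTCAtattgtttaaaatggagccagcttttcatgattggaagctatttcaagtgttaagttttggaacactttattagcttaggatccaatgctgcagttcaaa
Eaf1 downstream, chr14:31496242-31496460: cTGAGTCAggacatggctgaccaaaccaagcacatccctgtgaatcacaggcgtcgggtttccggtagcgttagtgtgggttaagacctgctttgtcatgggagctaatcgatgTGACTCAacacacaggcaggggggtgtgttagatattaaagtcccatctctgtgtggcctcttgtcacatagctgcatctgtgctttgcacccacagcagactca
Cdkn2c downstream, chr4:109662538-109662797: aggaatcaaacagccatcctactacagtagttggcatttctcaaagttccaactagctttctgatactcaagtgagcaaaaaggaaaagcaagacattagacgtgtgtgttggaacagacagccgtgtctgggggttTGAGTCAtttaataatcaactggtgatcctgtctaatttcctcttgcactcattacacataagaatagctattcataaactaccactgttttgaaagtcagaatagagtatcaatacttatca

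The next lines show a site with a TEAD motif (ACATTCCA, ACATTCCT, GCATTCCA or GCATTCCT on either strand), the motif of the DNA-binding partners of YAP and TAZ, and a site with an NFY motif (CCAATCAG, CCAATCGG, CCAATGAG or CCAATGGG on either strand). They are printed in the same way. The site at Hoxd11 was also the one closest to an island, at a gap of 4 bp.
Nos1ap upstream, chr1:170457750-170457962: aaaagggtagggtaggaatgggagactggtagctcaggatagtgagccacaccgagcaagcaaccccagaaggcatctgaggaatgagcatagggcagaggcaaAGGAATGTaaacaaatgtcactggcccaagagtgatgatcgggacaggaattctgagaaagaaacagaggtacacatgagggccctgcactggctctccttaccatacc
Hoxd11 downstream, chr2:74680813-74681048: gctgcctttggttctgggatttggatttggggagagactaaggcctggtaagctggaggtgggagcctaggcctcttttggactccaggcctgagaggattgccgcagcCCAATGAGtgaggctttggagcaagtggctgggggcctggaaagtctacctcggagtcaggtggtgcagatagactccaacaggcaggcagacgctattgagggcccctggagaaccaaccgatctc

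The AP-1 sites at Gm43005, Spns2, Gm23910, Aknad1 and Eaf1 had no other site at their promoter, whereas the site at Cdkn2c, which encodes a cyclin-dependent kinase inhibitor, had one. Their centres lay 1118, 1434 and 1517 bp upstream and 2822, 1155 and 2704 bp downstream of a TSS, in the order printed. The site at Eaf1 held 2 matches. All of these lay in an intron except that at Spns2, which was intergenic.

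The first question was on which side of the promoter the sites lay. Downstream sites were the larger group, with 314 of 501 (62.7%, Wilson 95% confidence interval 58.4 to 66.8%), and 187 were upstream (37.3%, 33.2 to 41.6%). As a background, the genome was tiled end to end in 200-bp windows, and the 1199432 windows that met the same rule on distance and islands were counted without sampling. Of these windows, 51.0% were downstream, which is outside the interval of the sites. With sites within 1 kb of each other merged first, the downstream share was 55.5% of 353 (50.3 to 60.6%), an interval that includes the 51.0%. The intervals here cover counting error only, because sites are not replicates and several share a promoter. Nearest to the limits, a site at Bnc2 centred 1003 bp downstream was just inside and a site at Csf1 at 987 bp just outside 1 kb. A site at Rnf139 at 2998 bp was just inside and a site 3003 bp upstream of Prrx1 just outside 3 kb.

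The second question was whether the same promoter also had a site, meaning a site centred within 1 kb of the nearest TSS of the member. This held for 174 members (34.7%, 30.7 to 39.0%), against 3.65% of the tiled windows. With sites within 1 kb of each other merged first, it held for 37 of 353 members (10.5%). The density of members was 19.9 per Mb of tiled windows at promoters with a site (exact Poisson 95% interval 17.0 to 23.1) and 1.42 per Mb at promoters without one (1.27 to 1.58). The difference also held among promoters with a CpG island within 1 kb. There the density was 20.1 per Mb where the promoter had a site (17.2 to 23.5) and 1.80 per Mb where it had none (1.52 to 2.13). At promoters without an island it was 1.27 per Mb (1.10 to 1.46).

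The 2 answers were linked. Of the downstream members, 41.7% had a site at their promoter (131 of 314), and of the upstream members 23.0% (43 of 187), a difference of 18.7 percentage points (Newcombe 95% interval 10.3 to 26.5). Seen the other way, 75.3% of the members beside a promoter site were downstream (68.4 to 81.1%), where the tiled windows gave 53.9%. At promoters without a site 56.0% were downstream (50.5 to 61.2%), where the tiled windows gave 50.9%, a value inside that interval. The difference between these groups of members was 19.3 points (10.6 to 27.3). Among island promoters alone, the downstream shares were 76.4% with and 55.3% without a promoter site, a difference of 21.04 points (10.4 to 31.1).

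The link was not detected when sites within 1 kb of each other were merged first, which left 37 members beside a promoter site. The downstream share was then 56.8% beside a promoter site and 55.4% elsewhere, a difference of 1.38 points (-15.4 to 17.0). Before merging, 134 of the 174 members beside a promoter site had another site within 1 kb. Merging therefore joins most of that group to other sites, and the wide interval cannot decide whether the link holds for those that remain. With 1 member per gene the difference was 17.3 points (7.45 to 26.1), and with 1 TSS per gene it was 15.5 points (6.05 to 24.3).

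**Figure D1:**
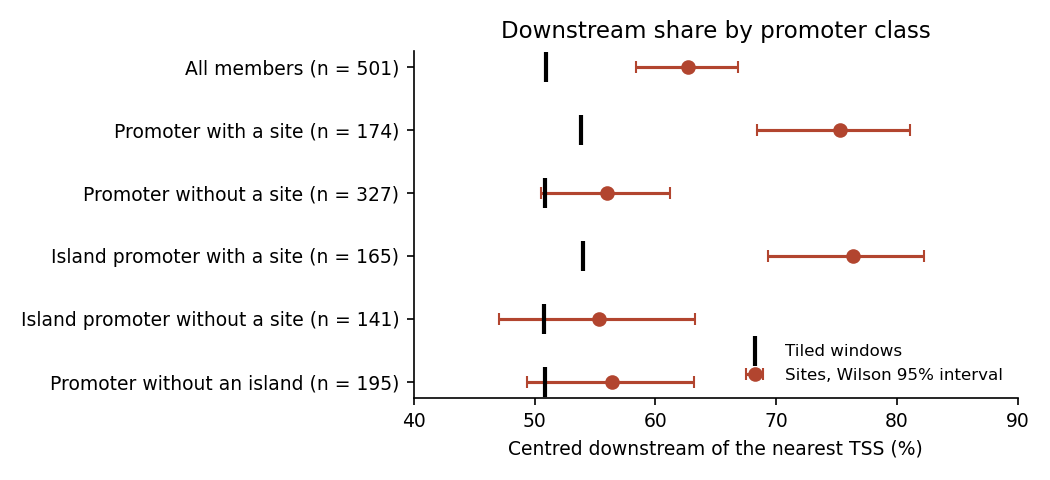
Share of members centred downstream of the nearest TSS (%), by class of promoter; points are sites with Wilson 95% intervals and black ticks are the tiled windows of the same class. The point for promoters with a site (75.3%) lies to the right of its tick (53.9%), and the interval for promoters without a site includes its tick.

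The distance from the TSS showed the same contrast. Downstream of promoters with a site, the density was highest at 1 to 1.5 kb, with 42.0 members per Mb (52 members), and was 32.8, 19.8 and 14.6 per Mb in the next 3 bins of 500 bp. Upstream of such promoters it was 11.4, 20.2, 3.04 and 7.33 per Mb in the same order, from 12, 21, 3 and 7 members, so that these values carry wide intervals. At promoters without a site the 8 bins ranged from 0.910 to 1.67 per Mb, and their intervals overlapped. The downstream share itself did not differ detectably between members at 1 to 2 kb (62.9%) and at 2 to 3 kb (62.4%, difference 0.495 points, -8.05 to 9.22). The share with a promoter site did, with 40.7% and 25.3% (difference 15.5 points, 7.0 to 23.4).

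**Figure D2:**
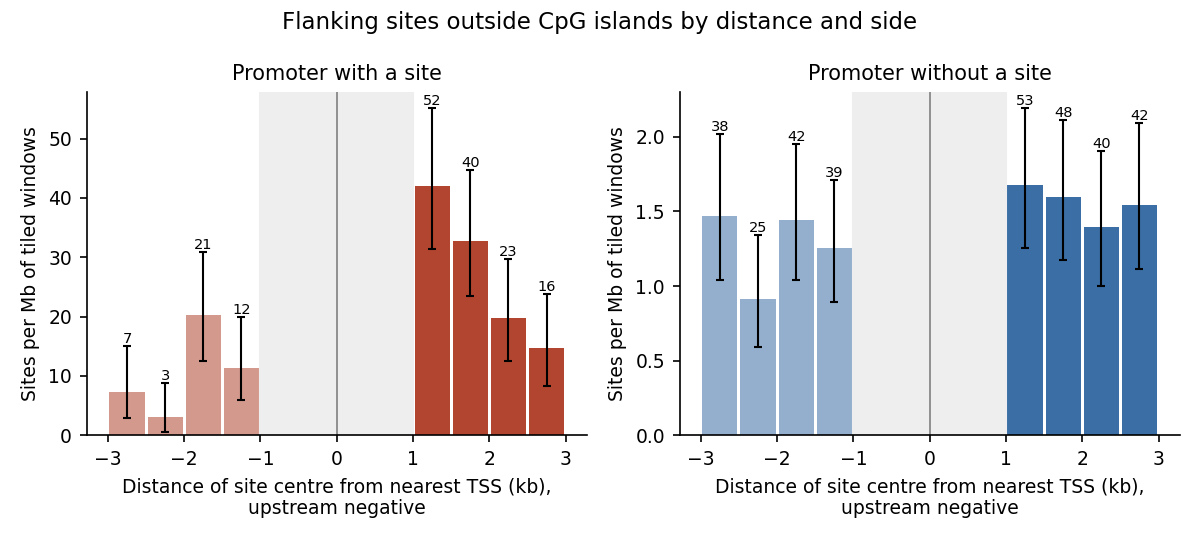
Members per Mb of tiled windows against the distance of the site centre from the nearest TSS (kb, upstream negative), in bins of 500 bp, for promoters with a site (left) and without (right, on a smaller axis); bars are densities, whiskers exact Poisson 95% intervals and numbers the members counted. Densities at promoters with a site reach 42.0 per Mb just downstream, and those at promoters without one stay at or below 1.67 per Mb.

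For the 174 members beside a promoter site, the gap to the nearest site of that promoter had a median of 836.5 bp, with quartiles of 349 and 1297 bp, and was at most 1 kb for 104 of them. The definition of these members bounds that gap, which is given as a description. The gap to the nearest site of any class had a median of 352 bp. Of the 174, 48 had 2 or more promoter sites. An island was at the promoter of 165 (94.8%), against 93.7% of the tiled windows at promoters with a site. Among members at island promoters, the median gap to the nearest island was 642 bp where the promoter had a site (n = 165) and 1355 bp where it had none (n = 141), without a test. The same groups also differed in their median distance from the TSS, which was 1641 bp and 2065 bp. The promoter sites beside a member had a median width of 418 bp (quartiles 262 and 819 bp, n = 177), and that of the other promoter sites was 301 bp (229 and 416 bp, n = 3200).

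**Figure D3:**
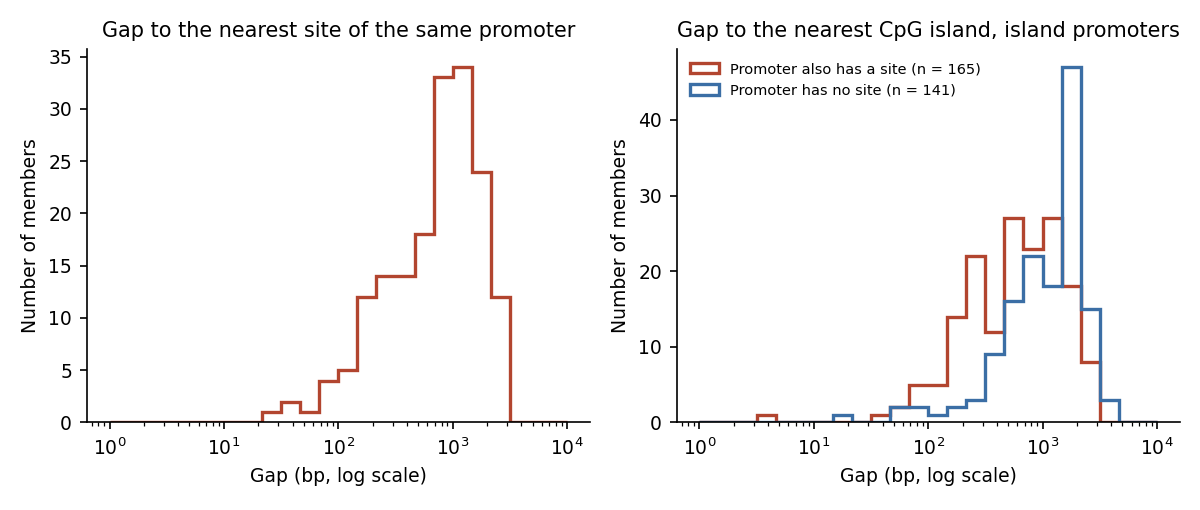
Number of members against the gap (bp, log scale) to the nearest site of the same promoter, for the 174 members that have one (left), and to the nearest CpG island, for members at island promoters split by whether the promoter also has a site (right). The left gaps run from 22 to 2765 bp, and the right medians are 642 bp with and 1355 bp without a promoter site.

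Although none of the members overlapped an island, 306 (61.1%, 56.7 to 65.3%) had an island within 1 kb of their TSS, against 36.0% of the tiled windows. Compared with flanking sites on an island, of which 57.1% had a site at their promoter, members had one less often (difference -22.4 points, -30.8 to -13.6). Their downstream share was also lower than the 71.4% of those sites (difference -8.75 points, -16.5 to -0.271). The groups differed in their promoters, however, as 92.55% of the flanking sites on an island had an island at their promoter. Among members at island promoters, 53.9% had a promoter site (165 of 306) and 66.7% were downstream. Among members at promoters without an island, 4.6% had a promoter site (9 of 195) and 56.4% were downstream. Whether the differences hold among island promoters alone was not tested.

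Most members lay inside genes. Of the 501, 336 were centred in an intron (67.1%, 62.8 to 71.0%), 101 between genes (20.2%), 27 in other exons, 25 in a UTR and 12 in coding sequence. The tiled windows were in introns at 53.5% and between genes at 36.0%. The intron share of members exceeded that of sites over 3 kb from any TSS and off islands (48.9%, difference 18.2 points, 13.5 to 22.7) and that of promoter sites off islands (55.2%, difference 11.8 points, 5.31 to 18.3). Windows were counted only under the rule for members. Those classes therefore have no window share of their own, and the intron content of the genome at their distances was not compared. The excess over the windows was present on both sides. Downstream members were in introns at 75.2% and downstream windows at 62.3%, and upstream members at 53.5% and upstream windows at 44.4%. Of the 314 downstream members, 190 (60.5%) were in the first intron of the transcript that starts at their TSS, 35 in a later intron, 10 in the first exon, 14 in a later exon and 65 beyond the end of that transcript.

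The sites were narrow. Their median width was 244 bp (quartiles 200 and 354 bp). A width of 200 bp, the lowest in the list, occurred among 27.0% of members, 34.7% of off-island sites over 3 kb from a TSS (difference -7.74 points, -12.0 to -3.24) and 10.6% of flanking sites on an island. From promoter sites off islands (24.7%) the members differed by 2.28 points, with an interval that includes 0 (-3.64 to 8.045). The median width of those promoter sites was 243 bp. The lowest width occurred in 20.7% of members beside a promoter site and in 30.3% of the other members (difference -9.59 points, -17.0 to -1.45). The GC content was 45.3% ± 5.34 (SD over 501 sites), and that of the tiled windows 42.8% ± 7.68 (SD). The rule excludes sequence that is rich in both GC and CpG, but not GC-rich sequence with few CpGs, and the members ranged from 25.9 to 61.0% GC. Soft-masked repeats made up 18.7% of the sequence of a member on average and 31.7% of a window. At least 50% of the sequence was repeat in 9.58% of members and in 25.4% of windows. Among members beside a promoter site this share was 2.30%, and among the others 13.5% (difference -11.2 points, -15.5 to -6.39).

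Motifs of AP-1 and TEAD factors were found in members more often than in the tiled windows. The AP-1 motif lay in the central 200 bp of 41 members (8.18%, 6.09 to 10.9%) and in 3.30% of windows. The TEAD motif lay in 42 members (8.38%, 6.26 to 11.1%) and in 3.44% of windows. Only 3 members held both. Among members with a GC content of 40 to 50%, the AP-1 share was 9.79% (33 of 337) against 3.58% of windows in that range, and the TEAD share was 8.01% (27 of 337) against 3.65%. These limits were chosen after the data were seen. In the central 100 bp alone the AP-1 share was 4.99% (3.4 to 7.26%) against 1.61% of windows, and the TEAD share 4.59% (3.08 to 6.79%) against 1.68%. A match is a description of the sequence and not evidence of binding by the factor.

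The AP-1 share lay between those of the other classes of sites. It was below that of off-island sites over 3 kb from a TSS (11.6%, difference -3.41 points, -5.93 to -0.399). It was above that of flanking sites on an island (2.48%, difference 5.70 points, 1.42 to 8.82) and of promoter sites on an island (1.40%, difference 6.79 points, 4.64 to 9.54). From promoter sites off islands (8.04%) it differed by 0.141 points (-3.69 to 3.74). The share was 9.79% at promoters without a site and 5.17% beside a promoter site, a difference of 4.61 points whose interval includes 0 (-0.555 to 9.04). Upstream and downstream members had 9.09% and 7.64% (difference 1.45 points, -3.37 to 7.0). For TEAD the comparison with sites over 3 kb away (9.34%) also included 0 (difference -0.954 points, -3.43 to 2.03). So did those with promoter sites off islands (difference 1.95 points, -1.69 to 5.40) and with flanking sites on an island (4.66 points, -0.0171 to 8.065). The TEAD share was above that of promoter sites on an island (1.03%, difference 7.35 points, 5.19 to 10.1).

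**Figure D4:**
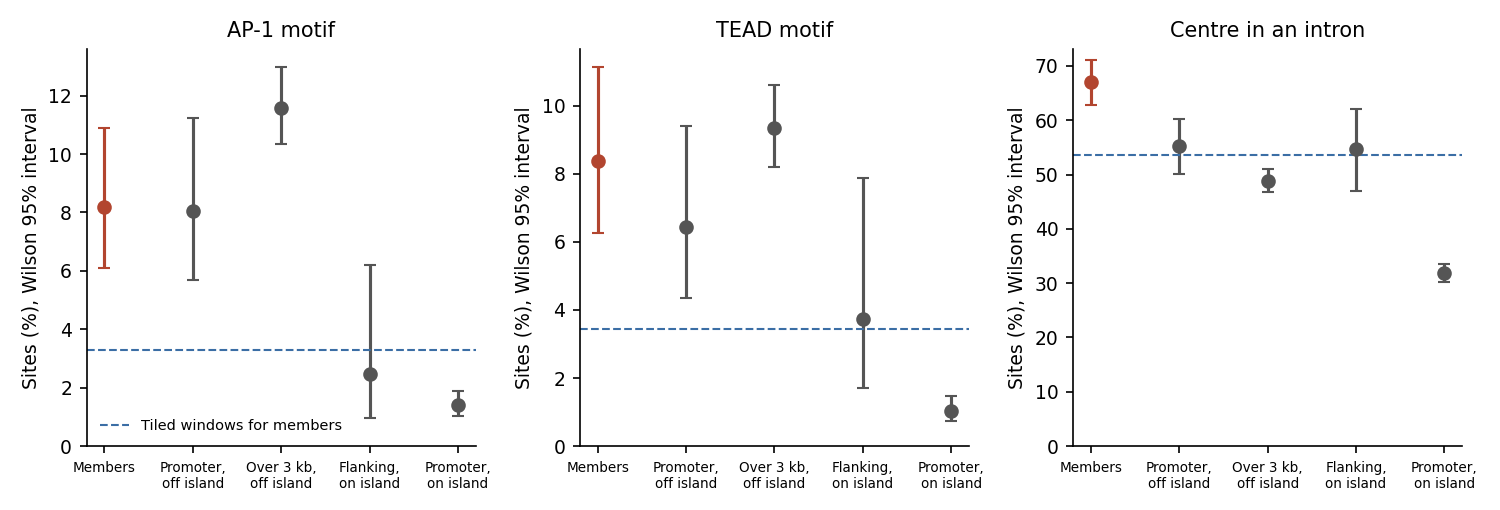
Share of sites (%) with an AP-1 motif, with a TEAD motif and centred in an intron, for the members (red) and 4 other classes of sites (grey), with Wilson 95% intervals; the dashed line is the share of the tiled windows that meet the rule for members. Members lie above the line in all 3 panels, at 8.18%, 8.38% and 67.1%.

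The other motifs had few matches. The E-box CACGTG, bound by MYC and USF proteins, was found in 13 members (2.59%, windows 2.05%) and the NFY motif in 9 (1.80%, windows 1.95%). The motif CCCCGCCCC of SP and KLF factors was in 2 members (0.399%, windows 0.340%), CCGGAAGT of ETS factors in 1 (0.20%, windows 0.118%), the cyclic AMP element TGACGTCA in 1 (0.20%, windows 0.0840%) and the EGR motif (GCGGGGGCG or GCGTGGGCG) in 1 (0.20%, 0.0352 to 1.12%, windows 0.0285%). The motifs of NRF1, YY1 and CTCF had 0 matches, which allows a share of up to 0.761% (Wilson upper bound), and were in 0.0214%, 0.00450% and 0.123% of windows. Promoter sites on an island held the SP and KLF motif at 5.89% and the ETS motif at 5.96%. None of the 11 motifs was found in 397 members (79.2%), and in 89.0% of the tiled windows.

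The members were assigned to 445 genes by the nearest TSS, and 340 members (67.9%) belonged to protein-coding genes, against 54.9% of the tiled windows. Processed pseudogenes had 34 members, antisense transcripts 30 and lincRNAs 30. Members at coding genes were downstream at 67.6% and those at noncoding genes at 52.2% (difference 15.5 points, 6.32 to 24.5). Among the protein-coding genes, 294 of 21938 had a member (1.34%). Where the gene also had a promoter site at any TSS the share was 4.35% (134 of 3078), and 0.848% where it had none (160 of 18860), a difference of 3.51 points (2.83 to 4.29).

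Most genes had a single member, but 37 genes held 93 of them. Hoxa10, a homeobox factor of the limb and urogenital tract, had 5 members that were 200, 367, 429, 631 and 1082 bp wide. Of these, 3 lay upstream and 2 downstream of their nearest TSSs, and 3 had a site at that promoter. Bnc2, which encodes a zinc finger protein of the basonuclin family, also had 5 members. They lay 1003, 1549, 1640 and 2399 bp downstream and 1679 bp upstream of its alternative TSSs, and all had a site at the promoter. Mecom, a PRDM-family zinc finger factor, had 5 members. They lay 1621 and 2507 bp downstream of one TSS and 1037, 1480 and 2183 bp upstream of a second, distant TSS.

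The nuclear receptor gene Nr2f2 and the mTOR complex gene Rictor had 4 members each. At Rictor the sites were placed on both sides, 1641 and 1977 bp upstream and 2482 and 2847 bp downstream, with gaps of 94 and 104 bp within each pair. The antisense gene Gm43120, the digit-patterning gene Hoxd13 and Cyp1b1, a cytochrome P450 of xenobiotic and oestrogen metabolism, had 3 each, as had Lrba, Foxp1 and Mir99ahg, which had a smaller summed width. Those at Cyp1b1 were at 1073, 1710 and 2258 bp, all downstream. The 5 widest members were at Gm43120 (1129 bp), Hoxa10 (1082 bp), the coactivator phosphatase gene Eya1 (1059 bp), the membrane protein gene Lrig3 (877 bp) and the autophagy gene Vmp1 (877 bp). All of them were intronic, and those at Gm43120 and Eya1 had a site at the promoter.

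**Figure D5:**
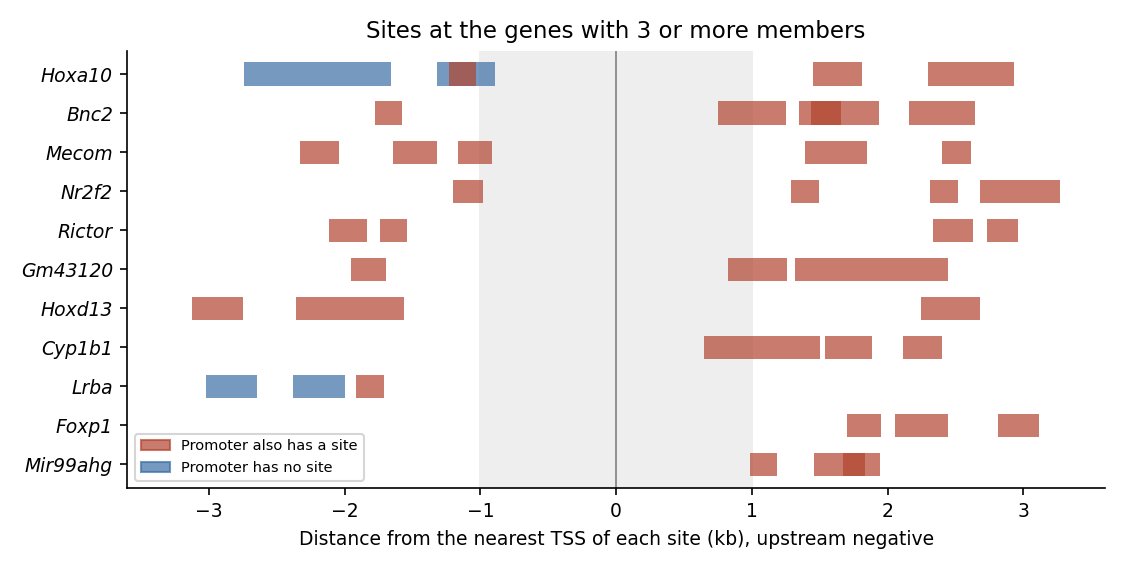
Members at the 11 genes with 3 or more, drawn as bars to scale at their distance from their own nearest TSS (kb, upstream negative); red bars have a site at the promoter and blue bars have none, and the grey band is the 1 kb around the TSS. Bars overlap where a gene has several TSSs, and the sites at Rictor fall on both sides while those at Cyp1b1 are all downstream.

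Among gene lists, the background of 1.34% of protein-coding genes with a member was set beside each count. Of 41 mesenchymal transcription factors, 20 had a promoter site (48.8%) and 6 had a member (14.6%, 6.88 to 28.4%). Among the 6 with a member were Mecom, Twist1, a mesoderm bHLH factor (453 bp, 1467 bp downstream), the forkhead factors Foxp1 and Foxp2, and the bHLH factor Tcf4. Those of Mecom, Twist1, Foxp1 and Tcf4 also had a site at the promoter, and that of Foxp2 did not. Of the 13 YAP and TEAD genes, 5 had a promoter site (38.5%) and 3 had a member (23.1%, 8.18 to 50.3%). The 3 with a member were the coactivator gene Wwtr1 (415 bp, 1721 bp downstream), the kinase gene Lats2 (286 bp, 2356 bp upstream) and the cofactor gene Vgll4 (200 bp, 1925 bp downstream), none with a site at the promoter of the member. Of 26 actin cytoskeleton genes, 6 had a promoter site (23.1%) and 3 had a member (11.5%, 4.00 to 29.0%). The 3 with a member were tropomyosin Tpm1 (361 bp, 1559 bp downstream), Palld (337 bp, 2876 bp downstream) and the intermediate filament gene Vim (242 bp, 1608 bp downstream). The promoters of the members at Tpm1 and Vim had a site and that at Palld had none.

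Smaller counts were found in the other lists. Of 26 Wnt and R-spondin genes, 2 had a member, the TCF factor Tcf7l2 (621 bp, 2483 bp downstream) and the Wnt amplifier Rspo2, whose 2 members of 281 and 616 bp lay 2952 and 1729 bp downstream. Of the 25 COMPASS and demethylase genes, 15 (60.0%) had a promoter site, against 3078 of all 21938 protein-coding genes. Only Kdm6a, a histone demethylase of KMT2 complexes, had a member, 1458 bp downstream. Of the extracellular matrix list Sparc had one (1 of 36), of TGF-beta and BMP genes Smad4 (1 of 26), of immediate-early genes Klf6, with 2 members (1 of 17), and of the histone list Hist1h1d (1 of 67). The AP-1 and MAF factors had 0 of 18 and the cytosolic ribosomal proteins 0 of 83. Of those 83, however, 60 (72.3%) had a promoter site, against the same 3078 of 21938 protein-coding genes. Olfactory receptors had a member at 2 of 1135 (0.176%).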

How the data were processed

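ChIP-seq of ASH2L and matched inputs was made in 8 libraries. Per the paper's methods, the authors used Trim Galore for trimming, BWA for alignment to mm10, SAMtools for filtering, Picard to pool replicates, MACS for narrow peaks and DESeq2 for changes; the antibody was against HA (the labels name Ash2l). The deposited list holds other values than signal, namely the start and end of each site over all samples. Starts were read as counted from 0, since the smallest end minus start is then 200 bp. The planned test of dTAG was not run.

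TSSs and features came from GENCODE mouse release 21 (132629 distinct TSSs, all gene types), an earlier release than the authors used, and sequence from the same build. Sites on the 21 assembled nuclear chromosomes were used. Shares have Wilson and differences Newcombe 95% intervals, with no p-value. Motifs were matched on both strands in the central 200 bp, with ambiguous bases where the consensus has them. The members, gene lists and rules were chosen with earlier results of these data known. Named are the 8 genes with the most members (ties by summed width), the 5 widest members, up to 4 genes of each of 12 lists, the sites at the limits, and sites of at most 300 bp with a motif nearest their centre. One gene that the rule names is not reported here. Foxp2 and Tcf4 are named beyond that rule, as are genes in the last part. Functions were tested on simulated data. Python 3.11.15 was used, with matplotlib 3.10.9, SciPy 1.17.1, pandas 2.3.3 and NumPy 2.4.6.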

Additional observations from a re-analysis of the deposited data

Results flagged for a closer look

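A further 16 sites of the list lay on sequence other than the 21 assembled nuclear chromosomes. They entered no comparison and are given here as data outside the main measurement.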

How the results depend on the processing

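No paired analysis was possible because the list gives positions pooled over all libraries. Of 176 alternative values, 147 stayed within the counting interval of the reported value (or within 1.5 times a count), 29 moved and 0 crossed 50% in the share by side; the cause was not tested. Limits of 1 and 2 kb left 307 members. The upstream share was 32.7% with protein-coding TSSs only, 44.5% with sites within 1 kb merged and 32.4% at coding promoters, and beside a promoter site it was 43.2% after merging. The share whose promoter also has a site was 40.7% at 1 to 2 kb, 29.5% at 1 to 5 kb, 45.3% with protein-coding TSSs, 39.1% with 1 TSS per gene, 28.8% with 1 member per gene, 10.5% after merging, 41.5% for any TSS of the gene, 26.7% for a 500 bp window and 43.2% at coding promoters. The share whose promoter has an island was 72.5%, 69.0%, 45.1%, 44.4%, 48.4% and 70.0% with protein-coding TSSs, 1 TSS per gene, islands of at least 500 bp, strict islands, merged sites and coding promoters. In a motif window of 100 bp, the AP-1 share was 4.99% and the TEAD share 4.59%. The intron share was 71.2% with protein-coding TSSs, 59.5% with 1 TSS per gene and 73.8% at coding promoters. The median width was 284 bp without sites of the minimum width. The mean GC content was 45.8%, 46.2% and 46.0% with islands of at least 500 bp, strict islands and merged sites. Leaving out chromosomes 10 and 15, chromosomes 3, 4 and 15, or sites of 50% or more repeats, and the restriction to coding promoters, were chosen after seeing the data. A stricter peak threshold and the replicate block were not run, as the list used has no scores or values per library.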

Other observations

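Of the 445 genes with a member, 37 had 2 or more, and 3 of these are described here, chosen after their values were seen, with no background for them as a group. Cdkn2c had members of 776 and 260 bp, 1205 and 2704 bp downstream. Cdkn1b had members of 445 and 265 bp at 2094 and 2480 bp downstream, in its UTR. Cdkn2a had a member of 797 bp 1502 bp downstream and one of 225 bp 1508 bp upstream. All 6 of these had a site at the promoter.

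Members were unevenly spread over the chromosomes. Chromosome 15 had 4.36 per Mb of tiled windows (35 members), chromosome 3 had 4.31 (53) and chromosome 4 had 3.35 (44), against 2.09 over all chromosomes. Members made up 7.87% of all sites on chromosome 15, 12.3% on chromosome 3 and 11.2% on chromosome 4, against 7.79% over all chromosomes. The X chromosome had 0.467 (5 members) and the Y chromosome 0. Read depth and copy number per chromosome are not in the list, and their part in these densities was not tested.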
